A study of Mus musculus with 4 samples.

Results

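The genes described here encode 7 Krüppel-like factors (KLFs): Klf2, Klf3, Klf4, Klf6, Klf7, Klf10 and Klf13, out of 21887 protein-coding genes in the RefSeq table of the mouse genome (GRCm38.p6, the mm10 build). They were taken as a named list. Every peak of either Runx3 map was assigned to a member when its summit lay in the span of the gene or within 10 kb of it. That gave 18 of 13166 ChIP peaks and 26 of 15891 CUT&RUN peaks. The members were named with earlier results of these data known, so the counts below are descriptions.

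The maps come from CD8 T cells of adult wild type mice, pulled from spleen with magnetic beads against CD8a. All 4 libraries of the study share that tissue, cell type and genotype; neither strain nor exact age is given in the sources used here. The anti-Runx3 ChIP library came from 50000000 frozen cells of 5 mice, and the anti-Runx3 CUT&RUN library from 150000 fresh cells of 1 mouse, with the same rabbit antiserum at 1 in 200. CUT&RUN releases the DNA around a bound antibody with a tethered nuclease, without sonication. A whole cell extract was the control of the ChIP peaks, and a normal rabbit serum CUT&RUN library was not analysed here. Each group is 1 library, so no difference between the assays has a replicate check and no test between them was made. After duplicate removal peak calling kept 9532996 ChIP fragments and 14068364 CUT&RUN fragments. The CUT&RUN count is for an alignment named for nucleosome-free fragments, so it need not be the whole library. Among marker genes of the labelled cell type, 5 of 5 (Cd8a, Cd8b1, Cd3d, Cd3e and Cd3g, of which Cd3d and Cd3g share theirs) had a peak present in both lists, against 1 of 4 B cell markers and 0 of 3 macrophage and monocyte markers. Over all protein-coding genes the share was 31.5%, close to that of the B cell markers. A peak is not expression, and these counts do not measure how pure the cells were.

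KLFs are transcription factors that bind GC-rich and CACCC-type DNA through zinc fingers at the end of the protein. In T cells some of them are known for holding resting cells in a quiescent, recirculating state. Klf2 is the best studied of them, and it maintains the genes through which naive T cells leave and re-enter lymphoid organs. Runx3 is a RUNX family transcription factor needed for the CD8 lineage. RUNX proteins bind DNA with a core that reads TGTGG on 1 strand and CCACA on the other.

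The DNA under the CUT&RUN peaks just before the gene starts is shown because every member with a RefSeq start had a CUT&RUN summit there. RefSeq promoter windows (250 bases before the start to 50 after it, GRCm38.p6) were found for 6 of the 7 members, all but Klf10. A CUT&RUN summit lay inside the window at 5 genes, and the part of the window before the start that the peak covers is printed 5′ to 3′ on the strand of the gene, with TGTGG or CCACA in capitals.
Klf2, chr8:72318812-72319042, plus strand: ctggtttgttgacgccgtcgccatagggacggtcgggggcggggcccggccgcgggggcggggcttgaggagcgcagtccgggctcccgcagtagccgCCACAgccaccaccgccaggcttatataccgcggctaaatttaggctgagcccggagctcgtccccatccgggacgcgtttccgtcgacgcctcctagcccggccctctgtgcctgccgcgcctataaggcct
Klf4, chr4:55532506-55532630, minus strand: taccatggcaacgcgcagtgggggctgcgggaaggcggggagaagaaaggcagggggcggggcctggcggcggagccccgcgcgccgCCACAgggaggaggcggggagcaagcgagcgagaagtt
Klf3, chr5:64803409-64803486, plus strand: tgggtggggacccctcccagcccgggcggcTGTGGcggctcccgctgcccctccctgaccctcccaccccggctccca
Klf6, chr13:5861294-5861376, plus strand: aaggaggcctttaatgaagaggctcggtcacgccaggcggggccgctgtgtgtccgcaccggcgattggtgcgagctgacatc
Klf13, chr7:63938916-63939165, minus strand: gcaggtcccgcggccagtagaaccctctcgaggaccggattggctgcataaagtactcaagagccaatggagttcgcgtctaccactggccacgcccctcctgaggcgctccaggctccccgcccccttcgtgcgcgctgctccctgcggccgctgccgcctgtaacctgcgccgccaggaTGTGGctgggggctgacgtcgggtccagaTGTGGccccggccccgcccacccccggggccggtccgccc

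These stretches are rich in G and C. The 6 KLF promoter windows had a median GC content of 70.7%, against 56.3% over 21263 windows of protein-coding genes and 62.7% over the 4207 windows that held a CUT&RUN summit. The letters TGTGG, on either strand, were in 4 of the 6 KLF windows (Klf2, Klf3, Klf4 and Klf13), and in 53.5% of all windows, so the count is near the background. The longer form TGTGGT, which contains TGTGG and was also searched on both strands, was in 0 of 6 windows and in 15.0% of all windows. TGCGGT, another form of the RUNX motif, was likewise in 0 of 6 windows on either strand and in 7.44% of all. Among windows with a CUT&RUN summit TGCGGT was in 14.9%, and among windows with a ChIP summit in 19.3%, against 5.18% with no summit. TGCGGT contains the letters CG. The median count of CG was 24 in windows with a CUT&RUN summit, 13 over all windows and 30.5 in the KLF windows. Whether the shares of TGCGGT follow this composition was not tested. TGTGG was in 52.6% of windows with a CUT&RUN summit, 56.4% with a ChIP summit and 54.0% with no summit. For TGTGGT these shares were 14.8%, 18.6% and 15.0%. The distances from TGTGG to the summits varied. In Klf3 it lay 8 bp from the CUT&RUN summit, and the nearest ChIP summit was 2926 bp away. In Klf13 the ChIP summit at 63938983 lay inside 1 of the 4 copies of the whole window, 2 of which are in the stretch printed. The Klf13 CUT&RUN summit at 63939067 lay 83 bp from the nearest copy. In Klf2 a copy lay 17 bp from the ChIP summit and 38 bp from the CUT&RUN summit, and in Klf4 the distances were 88 bp and 36 bp. Such matches describe letters only, and no background of these distances was computed.

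All 7 KLF genes had at least 1 peak in each list. Over protein-coding genes, 40.2% had a ChIP summit within 10 kb and 45.1% a CUT&RUN summit, and 34.9% had both. Peaks of the lists that overlapped by at least 1 bp are called shared here, and a shared ChIP peak was found at 6 of the 7 genes and at 31.5% of protein-coding genes. Klf7 was the member without one. Of the 18 ChIP peaks at KLF genes 16 were shared, or 88.9% (95% Clopper-Pearson interval 65.3 to 98.6), and of the 26 CUT&RUN peaks 17 were shared, or 65.4% (44.3 to 82.8). The shares over the whole lists, 66.2% and 58.8%, lie inside those intervals.

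**Figure D1:**
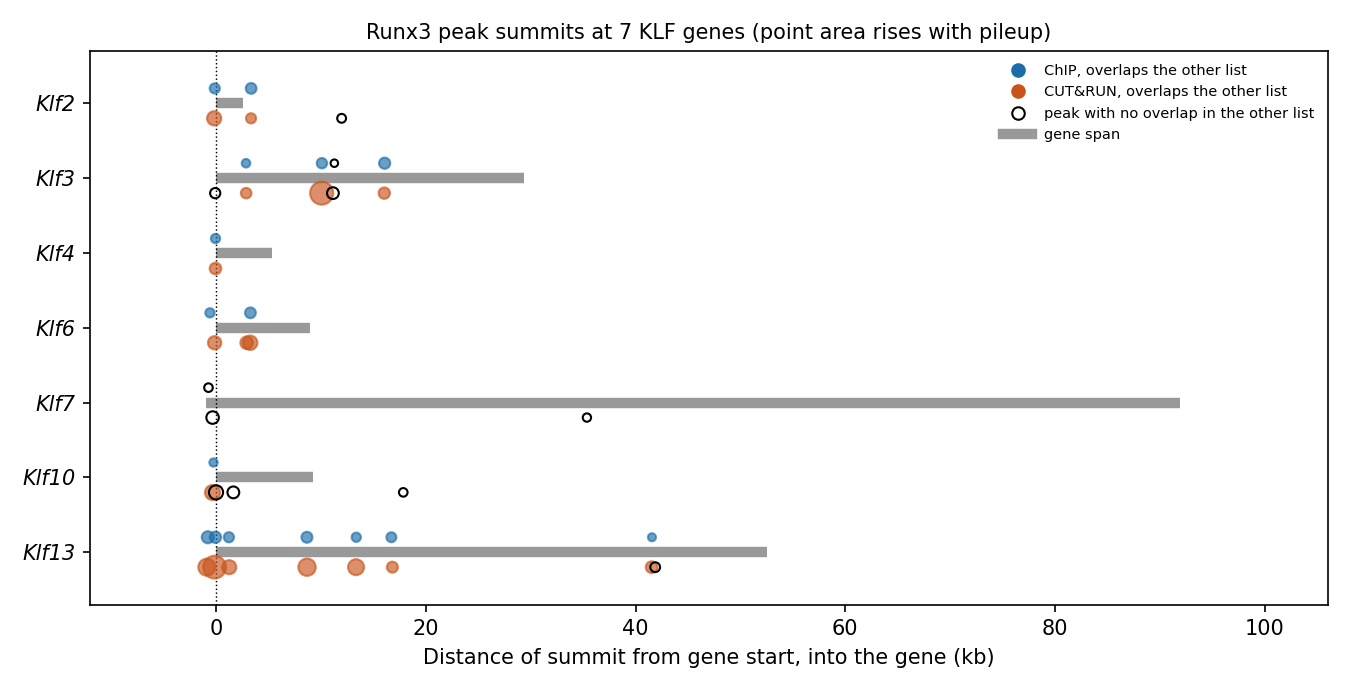
Map of the peak summits at the 7 genes, with the distance from the gene start in kb (positive into the gene) on the x axis. In each row ChIP peaks lie above the gene span and CUT&RUN peaks below it, the point area rises with the pileup, open circles are peaks with no overlap in the other list, and Klf10 is drawn from its end with the higher coordinate. Klf13 held 7 ChIP and 8 CUT&RUN peaks, and Klf4 held 1 of each.

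Peaks of the members lay mostly in the gene spans or within 1 kb of them. All 18 ChIP summits lay inside a gene span (11) or within 1 kb outside it (7), although the assignment allowed 10 kb. The farthest lay 0.794 kb outside, at Klf13, and the nearest ChIP summit beyond 10 kb of any member was 14.1 kb from Klf7. Of the 26 CUT&RUN summits 15 lay inside a span, 9 within 1 kb outside, and 2 farther out. Those 2 lay 9.376 kb outside Klf2, with a pileup of 12, and 8.599 kb outside Klf10, with a pileup of 11, and neither was shared. The nearest CUT&RUN summit beyond 10 kb was also near Klf7, 14.1 kb away, with a pileup of 54. Around Klf4 the next peak of either list was 129 kb from the gene. Over all protein-coding genes closeness was also common. Of the 8800 with a ChIP summit within 10 kb, 6932 had one within 1 kb, and in CUT&RUN 8021 of 9875 did. These are counts of genes, and the share over all assigned peaks was not computed. In the spans alone, 4 of the 7 genes had a ChIP summit, 5 a CUT&RUN summit and 3 a shared peak, against 22.4%, 24.1% and 16.2% of protein-coding genes. With 1 kb added on each side the counts were already 7, 7 and 6, against 31.7%, 36.6% and 24.2%. At 50 kb they were 7 of 7 throughout, against 58.9%, 62.4% and 50.3%, and Klf7 then counted as a gene with a shared peak.

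CUT&RUN summits near the start were common to the members. Among the 6 genes with a RefSeq start, all 6 had a CUT&RUN summit within 1 kb of it, as did 28.8% of protein-coding genes with a RefSeq start, and 5 had a ChIP summit there, against 24.5%. Klf3 was the gene among them with none in ChIP. These summits, 6 in ChIP and 7 in CUT&RUN, all lay upstream of the start, at 68 to 794 bp and at 90 to 886 bp. Those of Klf7 still fell inside the gene span, as its RefSeq start lies 956 bp within it. A summit up to 1 kb upstream was found at 16.9% of protein-coding genes in ChIP and 22.6% in CUT&RUN. Over all summits within 1 kb of the start of a protein-coding gene, 60.6% lay upstream in ChIP and 70.2% in CUT&RUN. Klf10 has no entry in the promoter table, and its ChIP summit and 2 of its 4 CUT&RUN summits lay within 1 kb outside the end with the higher coordinate. Inside the promoter windows themselves lay a CUT&RUN summit at 5 of 6 members (22.2% of protein-coding genes) and a ChIP summit at 3 of 6 (15.8%), namely Klf2, Klf4 and Klf13. Those 3 had summits of both lists in the window, as did 11.6% of protein-coding genes.

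**Figure D2:**
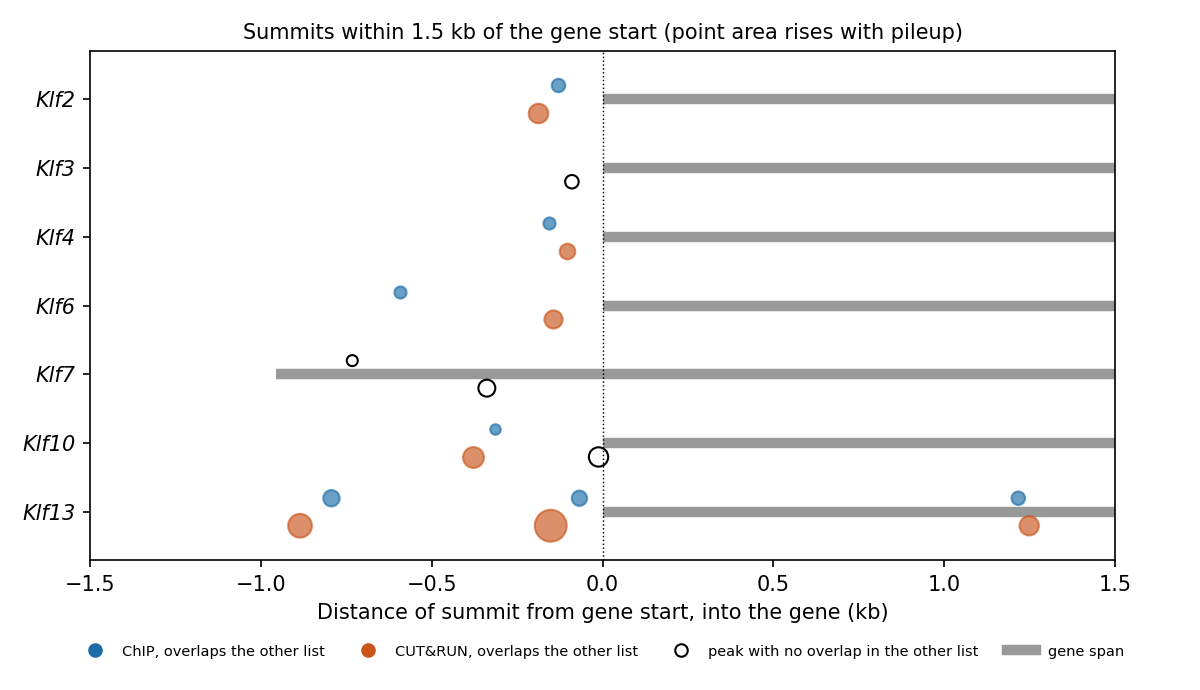
Summits within 1.5 kb of the gene start, with the distance in kb (positive into the gene) on the x axis, ChIP above and CUT&RUN below each gene span and open circles for peaks with no overlap in the other list. At the 6 genes with a RefSeq start, every summit within 1 kb of it lay on its upstream side, and Klf10 is drawn from its end with the higher coordinate. The Klf7 summits upstream of its RefSeq start lie inside the gene span.

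The height of a peak is given as its pileup, the number of fragments over the summit after duplicate removal, with an exact 95% Poisson interval for counting error only. Its place in its own list is the share of that list with an equal or better q, so a low percentage is a strong peak. ChIP pileups at KLF genes ran from 7 to 28 with a median of 17.5, against 12 over the list. CUT&RUN pileups ran from 10 to 117 with a median of 28, against 25. A pileup was not compared between assays. By q, 13 of the 18 ChIP peaks and 14 of the 26 CUT&RUN peaks stood in the upper 50% of their lists, and 1 and 2 of them in the top 10%.

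**Figure D3:**
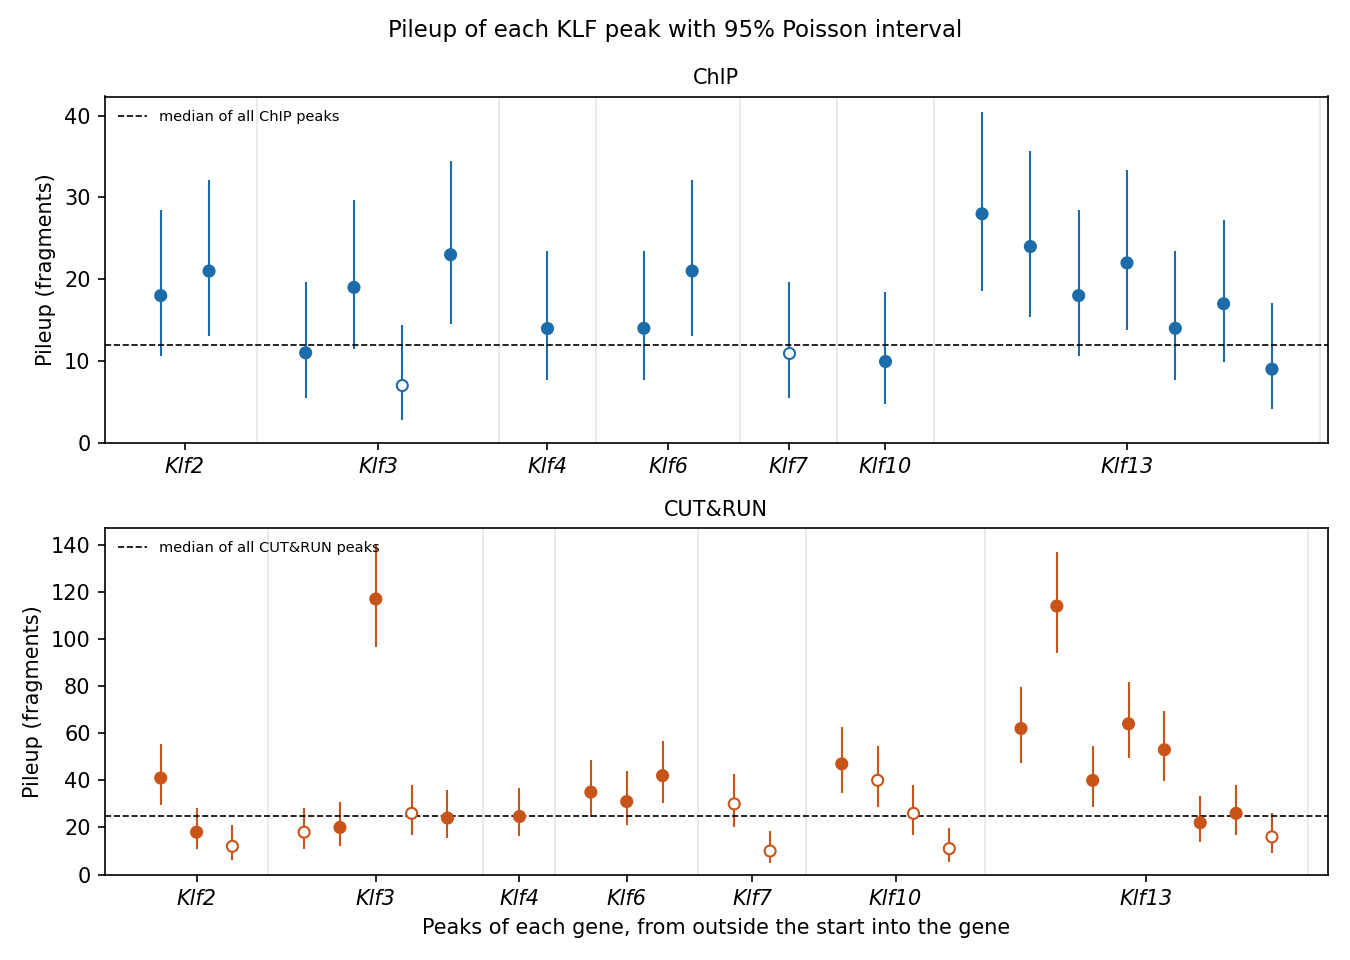
Pileup of every KLF peak in fragments (y axis) for ChIP (upper panel) and CUT&RUN (lower panel), with 95% Poisson intervals, peaks ordered within each gene from outside the start inwards, open circles for peaks with no overlap in the other list and dashed lines at the list medians of 12 and 25. The highest CUT&RUN peaks, 117 at Klf3 and 114 at Klf13, stand apart from the rest.

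Klf2, the factor of T cell quiescence and recirculation, lies on chromosome 8, 72319062 to 72321654, on the plus strand, and no other gene of the table lies within 10 kb. It was bracketed by shared peaks at its start and just past its end. At the start, 18 ChIP fragments (10.7 to 28.4) piled up at 72318931. In CUT&RUN 41 (29.4 to 55.6) did so at 72318872, 59 bp away. Past the end, the summits lay 9 bp apart, at 72322399 in ChIP with a pileup of 21 (13.0 to 32.1) and at 72322390 in CUT&RUN with 18 (10.7 to 28.4), about 0.74 kb outside the gene. In ChIP the intervals of these sites overlap, so their order there is not settled. The peak past the end stood in the top 15.2% of the ChIP list, against 21.5% for the start. In CUT&RUN it stood at 95.8%, near the foot of the list, and the start at 33.3%; by pileup alone these were 71.9% and 25.3%. No summit lay inside the span of Klf2.

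Klf4, known as a pluripotency factor and as a brake on the division of CD8 T cells, lies on chromosome 4, 55527137 to 55532475, on the minus strand. It had 1 peak in each list, and they overlapped. The ChIP summit at 55532631 lay 156 bp upstream of the start and had a pileup of 14 (7.65 to 23.5). The CUT&RUN summit at 55532579, 104 bp upstream, had a pileup of 25 (16.2 to 36.9). They stood at 38.0% and 42.0% of their lists, so both were peaks of middle rank. The long non-coding RNA gene Gm12506 begins at 55532710, close to the same summits, and the peaks cannot be assigned to 1 of the genes by position.

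Klf3 encodes a repressor that works through the corepressor CtBP. The gene lies on chromosome 5, 64803521 to 64832901, on the plus strand, and held its strongest peak well inside the span. That peak, 10.1 kb from the start, had a CUT&RUN summit at 64813586 with a pileup of 117 (96.8 to 140), a fold of 32.4 over background and a place in the top 1.96% of the list, the best of any KLF peak. In ChIP the summit lay 24 bp away, at 64813610, where 19 fragments piled up (11.4 to 29.7), a place of 19.1%. The best ChIP peak of Klf3 was another, at 64819594, with a pileup of 23 (14.6 to 34.5) and a place of 11.9%. Its CUT&RUN partner at 64819557 had 24 (15.4 to 35.7) and a place of 52.3%. Another shared pair lay 2.8 kb from the start, with pileups of 11 in ChIP and 20 in CUT&RUN. The start itself carried only a CUT&RUN peak, at 64803431, with a pileup of 18 (10.7 to 28.4). Unshared peaks of both lists lay side by side at 64814795 in ChIP, with a pileup of 7, and 64814657 in CUT&RUN, with 26, and 40 bases separated them. Parts of the locus are also annotated to other genes. The protein-coding gene Gm38457 spans the start and the shared pair 2.8 kb from it, and the lncRNA gene Gm31684 spans the pair near 64819594.

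Klf10, first known as a gene induced by TGF-beta and encoding a repressor, lies on chromosome 15, 38291464 to 38300711. Its ChIP peak and 3 of its 4 CUT&RUN peaks lay at or near the end with the higher coordinate. Its ChIP peak, with the summit at 38301025, was a weak one: the pileup was 10 (4.80 to 18.4) and the place 71.2%. The overlapping CUT&RUN peak, at 38301092, reached 47 (34.5 to 62.5) and a place of 29.4%. CUT&RUN had 2 more peaks near this end that were not shared, at 38300723 with a pileup of 40 (28.6 to 54.5), ending 50 bases from the ChIP peak, and at 38299070, inside the gene, with 26 (16.98 to 38.1). The lncRNA gene Gm35248 overlaps this end of Klf10 and contains these summits. The remaining CUT&RUN peak, at 38282865 with a pileup of 11 (5.49 to 19.7), lay 8.599 kb beyond the opposite end and was not shared.

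Klf6 encodes a broadly expressed activator. It lies on chromosome 13, 5861489 to 5870393, on the plus strand, and each of its 2 ChIP and 3 CUT&RUN peaks was shared. The stronger ChIP peak lay inside the gene at 5864757, 3.3 kb from the start, with a pileup of 21 (13.0 to 32.1). It was 591 bp wide and covered 2 separate CUT&RUN peaks, with summits at 5864740 (pileup 42, 30.3 to 56.8) and 5864403 (31, 21.1 to 44.0). At the start the lists overlapped but their summits did not coincide. The ChIP peak was 828 bp wide with its summit 592 bp upstream and a pileup of 14 (7.65 to 23.5), while the CUT&RUN summit lay 146 bp upstream, 446 bp away, with a pileup of 35 (24.4 to 48.7).

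Klf7, best known from neurons, lies on chromosome 1, 64029448 to 64122345, on the minus strand, and is the longest of the 7 genes at 92.9 kb. It had the fewest peaks for its length and no shared peak. In ChIP the pileup was 11 (5.49 to 19.7) at 64122122. In CUT&RUN it was 30 (20.2 to 42.8) at 64121728, a place of 32.9%. The peaks were 183 bases apart. The RefSeq start lies 956 bp inside the span given by the table, so both summits fall within the span but upstream of that start, by 0.733 and 0.339 kb. The lncRNA gene Gm35880 also spans both. A second CUT&RUN peak, deep in the gene at 64086026, had a pileup of 10 (4.80 to 18.4) and stood at 96.8% of its list.

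Klf13 encodes an activator of the chemokine gene Ccl5 late in T cell activation, and its locus held more peaks than any other member. The gene lies on chromosome 7, 63886351 to 63938915, on the minus strand. Its 7 ChIP peaks were all shared, and 7 of its 8 CUT&RUN peaks were. Over protein-coding genes, 0.457% had at least 7 ChIP summits within 10 kb and 0.402% at least 8 CUT&RUN summits. Longer genes offer more room, and the density at Klf13, 0.965 ChIP and 1.10 CUT&RUN peaks per 10 kb of window, was reached by 2.03% and 1.97% of protein-coding genes. The peaks fell into a group of 3 at the start, a stretch of 3 at 8.7 to 16.8 kb into the gene, and a site near the far end.

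At the Klf13 start, ChIP summits lay 794 and 68 bp upstream and 1217 bp downstream, with pileups of 28 (18.6 to 40.5), 24 (15.4 to 35.7) and 18 (10.7 to 28.4). The first of these, at 63939709, had the best place by q of any KLF peak in ChIP, the top 6.70%. Its interval overlaps those of the others at this start. The matching CUT&RUN pileups were 62 (47.5 to 79.5), 114 (94.0 to 137) and 40 (28.6 to 54.5), so the highest lay at 63939067, nearest the start. CUT&RUN is ranked against the local background of the same library, and that background was 6.09 to 6.14 fragments at these 3 peaks, the highest at any KLF gene, where other peaks had 0.473 to 2.92. Their places by q were 30.9%, 5.40% and 68.2%, and by pileup 12.0%, 2.95% and 26.4%. In ChIP the background was 1.12 at every KLF peak, so ChIP folds follow the pileup.

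Inside Klf13 the pair 8.7 kb from the start lay 8 bp apart, at 63930254 in ChIP with a pileup of 22 (13.8 to 33.3) and at 63930246 in CUT&RUN with 64 (49.3 to 81.7). It stood at 13.4% and 13.5%, almost the same place in both lists. The pair with its CUT&RUN summit 13.344 kb from the start had pileups of 14 (7.65 to 23.5) and 53 (39.7 to 69.3), and the pair at 16.7 kb had 17 (9.90 to 27.2) and 22 (13.8 to 33.3). The site near the far end was weaker in ChIP, with a pileup of 9 (4.12 to 17.1) at 63897349 and 26 (16.98 to 38.1) in CUT&RUN, and lay within the lncRNA gene Gm27252. Beside it lay the unshared CUT&RUN peak of Klf13, at 63897040 with a pileup of 16 (9.15 to 26.0), and 7 bases separated it from the ChIP peak. The protein-coding gene E030018B13Rik lies inside the span of Klf13 and contained none of the summits.

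**Figure D4:**
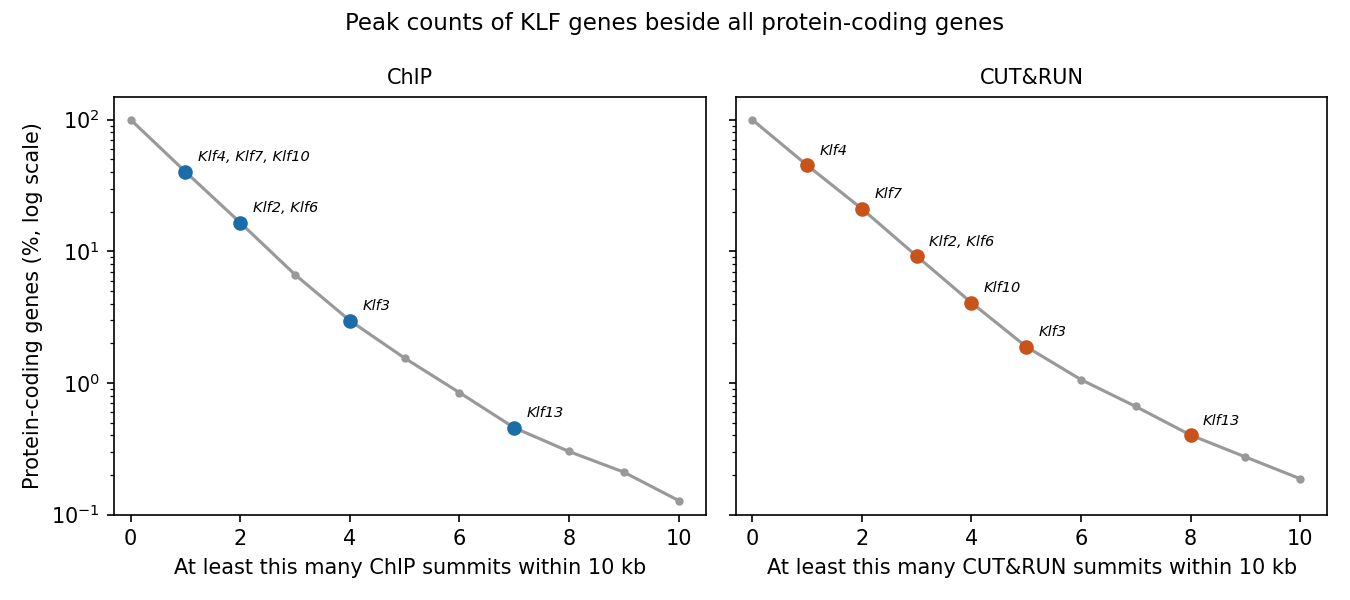
Share of protein-coding genes (y axis, percent, log scale) with at least a given number of summits within 10 kb (x axis), for ChIP and CUT&RUN, with the KLF genes marked at their own counts. Klf13 and Klf3 lie far down both curves, while Klf4 and Klf7 lie near the top.

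The members differed widely in the number of peaks. From 1 ChIP peak at Klf4, Klf7 and Klf10, reached by 40.2% of protein-coding genes, the counts rose to 2 at Klf2 and Klf6 (16.5%), 4 at Klf3 (2.98%) and 7 at Klf13. In CUT&RUN the order was Klf4 with 1, Klf7 with 2 (21.1%), Klf2 and Klf6 with 3 (9.22%), Klf10 with 4 (4.08%), Klf3 with 5 (1.89%) and Klf13 with 8. Per 10 kb of window, Klf7 was the least dense in both lists, with 0.0886 and 0.177 peaks, and Klf10 was the densest in CUT&RUN, with 1.37.

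Overlapping peaks of the lists formed 17 pairs at KLF genes, with summits 8 to 446 bp apart and a median of 37 bp, against 39 bp over all 9358 pairs of the series. Of the 17 pairs, 10 had both peaks in the upper 50% of their lists by q, or 58.8%, against 45.6% of all pairs. In 4 pairs the ChIP peak alone stood in the upper 50%, in 2 the CUT&RUN peak alone, and in 1 neither did. The pair past the end of Klf2 and the strong pair inside Klf3 stood close together in ChIP, at 15.2% and 19.1%, and far apart in CUT&RUN, at 95.8% and 1.96%.

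**Figure D5:**
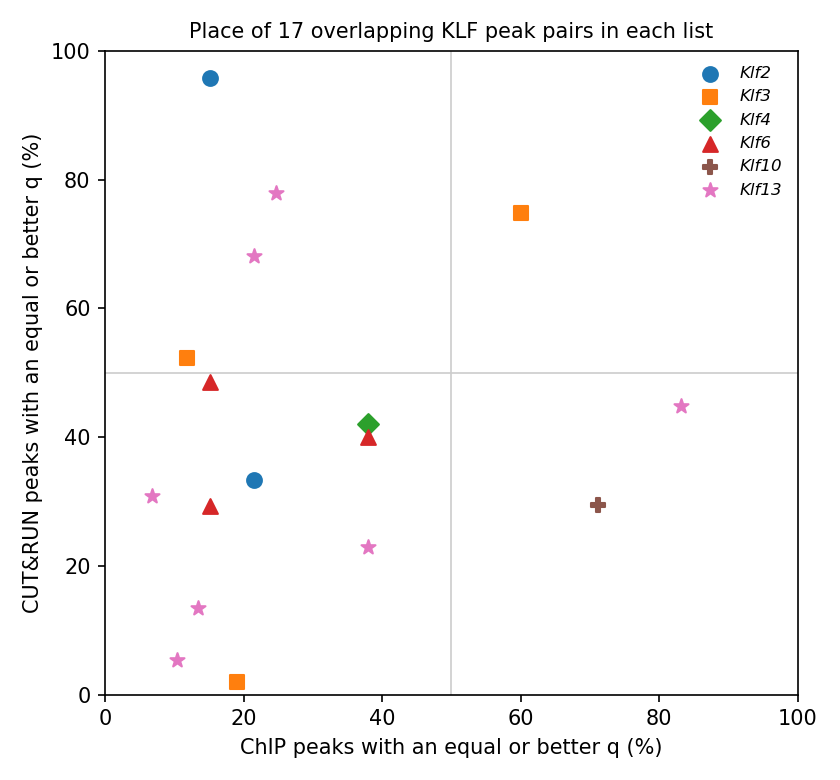
Place of the 17 overlapping KLF peak pairs in the ChIP list (x axis) and in the CUT&RUN list (y axis), each as the percentage of that list with an equal or better q, 1 point per pair and 1 symbol per gene. Both places are under 50% in 10 pairs, and the Klf2 pair past the gene end lies at 15.2% and 95.8%.

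Related genes were described from lists chosen with earlier results known. Of the 10 other KLF genes, 3 had a shared peak: Klf1, Klf11 and Klf16. The remaining 7 (Klf5, Klf8, Klf9, Klf12, Klf14, Klf15 and Klf17) had no peak in either list. At Klf11, a TGF-beta-inducible relative of Klf10, the ChIP summit at 24651071 and the CUT&RUN summit at 24651088 had pileups of 18 and 57. Of 9 SP genes, which encode the nearest relatives of the KLFs, 4 had a shared peak (Sp2, Sp3, Sp4 and Sp6), and Sp5, Sp8 and Sp9 had no peak. These shares stand beside 31.5% of protein-coding genes with a shared peak.

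Genes known to be controlled by Klf2 in T cells had a shared peak in 7 of 9 cases, beside 31.5% of protein-coding genes. The shared ChIP peaks with the best rank were at Il7r, which encodes a chain of the interleukin-7 receptor, with a pileup of 32, and Ccr7, the lymph node homing receptor, with 31. S1pr1, through which T cells leave lymphoid organs, had a shared ChIP peak with a pileup of 15. Il4, which encodes the cytokine interleukin-4, had no peak. Among 9 genes of regulators and cofactors of KLFs, 7 had a shared peak, beside the same 31.5%. Smad3, a mediator of TGF-beta signalling, had 10 ChIP and 7 CUT&RUN peaks. Counts as high were reached by 0.128% and 0.662% of protein-coding genes, without allowance for gene length. The best shared ChIP peak of Smad3 had a pileup of 48. Foxo1, an activator of Klf2 transcription, had a shared pair with pileups of 24 and 80. The genes of the corepressor, Ctbp1 and Ctbp2, had no shared peak.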

How the data were processed

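Per the submitters' processing notes, the authors aligned reads with Bowtie to mm10 and called peaks with MACS2. The file headers name MACS2 2.1.1.20160309, paired-end input and a limit of 1 fragment per position. Per the file headers, the cut-off on q was 0.05 for ChIP, with the whole cell extract as control, and 1e-05 for CUT&RUN, with no control and an alignment named for nucleosome-free fragments. Duplicate removal took 80.3% of ChIP fragments and 21.4% of the CUT&RUN fragments in that alignment. Replicates were not pooled, as each list rests on 1 library. The deposited lists give for each peak a pileup (a coverage signal in fragments), −log10 p and q values, and a fold, which is the ratio over background. These are the authors' values and were used only within a list.

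Summits were assigned to RefSeq gene spans extended by 10 kb. Overlap needed 1 bp (checked with bedtools 2.31.1). The expected background was computed as (pileup + 1)/fold − 1. Counts, intervals and motif searches used Python 3.11.15, numpy 2.4.6, pandas 2.3.3 and scipy 1.17.1, and were tested on simulated data. PCR (12 cycles) makes fragments that are not independent molecules, and the intervals allow for counting error alone. Duplicate removal also limits how high a pileup can rise. All 7 members are named, as are genes of the lists of related genes. Other windows, q limits, overlap rules and motifs were tried as alternatives. The members and lists were chosen with earlier results of these data known. No genome was used, so sequence was read only in RefSeq promoter windows. Some genes of the list controlled by Klf2 enter its count and are not reported singly here.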

Additional observations from a re-analysis of the deposited data

How the results depend on the processing

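With gene spans alone, 4 KLF genes had a ChIP peak (11 peaks), the CUT&RUN peaks numbered 15, and 3 genes had a shared peak. Within 50 kb there were 35 ChIP and 46 CUT&RUN peaks. At q of 1e-10 or less in both lists, 4 genes kept a ChIP peak (10 peaks), beside 15.6% of protein-coding genes. Of the KLF CUT&RUN peaks 43.5% were then shared, beside 26.7% of the whole list at that limit. Of the KLF ChIP peaks 90% were shared, beside 90.9% of the list, so the higher share at KLF genes was not seen there. With q of 1e-05 in both lists Klf10 lost its ChIP peak, which left 6 genes with a ChIP peak and 5 with a shared one, beside 29.3% and 25.3% of protein-coding genes. The stronger 50% of each list left 14 CUT&RUN peaks, 71.4% of them shared, beside 58.1% of that part of the list. It left 13 ChIP peaks, 69.2% of them shared, beside 65.4%. TGTGG, chosen after seeing the data as were ranking by pileup and the shared share at other windows, was in 4 promoter windows, against 0 for TGTGGT. Of the alternatives run on these counts and shares, 40 stayed within the margin set for a change (1.5 times for counts, the 95% interval for shares) and 11 moved. Ranked by pileup, the best CUT&RUN peak of Klf13 moved from 5.40% to 2.95%. Motif searches around summits were not run, because no genome was used here. Depth limits the ChIP values, whose pileups of 7 to 28 have wide intervals. No paired analysis was possible because each group is 1 library.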
